A study of Mus musculus with 12 samples.

Results

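The genes that encode the nuclear lamina and the complex that joins the nucleus to the cytoskeleton were followed in mouse ear fibroblasts on 4 kinds of gel. The members were taken by name: 3 lamin genes (Lmna, Lmnb1 and Lmnb2), 2 genes of inner nuclear membrane proteins that bind lamins (Lbr and Emd), 2 SUN domain genes (Sun1 and Sun2) and 3 nesprin genes (Syne1, Syne2 and Syne3). These are 10 of the 33246 genes listed, and all 10 passed the expression filter that left 14542 genes for testing.

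The cells were primary ear fibroblasts of 1-month-old mice, used at passage 2. In each sample 500000 cells were seeded on an alginate gel and collected after 48 h for poly(A) RNA-seq. The 4 groups of 3 samples were elastic gels of 2 kPa, elastic gels of 20 kPa, viscoelastic gels of 2 kPa and viscoelastic gels of 20 kPa, and the viscoelastic gels of the study were of the slow-relaxing kind. The gels carry RGD peptide, to which cells adhere. Elastic gels were crosslinked covalently and viscoelastic gels ionically, so the effect of stress relaxation and that of the crosslinking cannot be told apart. Which animals gave which sample is not given by the labels, so that p-values measure the spread between these samples, which may be partly technical.

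Lamins are intermediate filament proteins that form a mesh under the inner nuclear membrane. A-type lamins (lamin A and lamin C, both from Lmna) and B-type lamins (lamin B1 from Lmnb1 and lamin B2 from Lmnb2) give the nucleus its mechanical strength and hold chromatin at its edge. SUN proteins cross the inner nuclear membrane and bind, in the space between both membranes, the KASH domain of nesprins, which cross the outer membrane and reach actin, microtubules or intermediate filaments. This bridge is the LINC complex (linker of nucleoskeleton and cytoskeleton), and it carries force from adhesions to the nucleus. The comparisons address whether relaxation of the substrate changes the expression of these genes and whether the change depends on stiffness.

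Counts per sample ran from 36626221 to 43612804. Lmnb2, the least counted member, had 540 to 902 counts in a sample. All 8 fibroblast markers, such as Col1a1 and Pdgfra, were above 5 CPM in each group, with a summed level of 19730 to 24840 CPM. CPM are counts per 1000000 after TMM scaling, edgeR's correction for library composition. Sums over keratinocyte, endothelial, skeletal muscle and Schwann cell or melanocyte markers stayed at or under 4.84 CPM, and those of immune and adipocyte markers at or under 10.9 CPM. The 4 chondrocyte markers Col2a1, Acan, Sox9 and Comp were all high, with a sum of 4320 to 5893 CPM, so the cultures labelled fibroblast also carried RNA of cartilage genes.

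The proximal promoters of 3 members are shown. They belong to the member with the largest fall on viscoelastic gels at 20 kPa (Lbr), to one of several that fell at both stiffnesses (Sun2) and to the most abundant member (Lmna). Each is the stretch of 250 bases before a transcription start, 5′ to 3′ on the gene's strand, from RefSeq on GRCm38.p6. Of the 10 members, 9 were searched. Lmnb1 was left out of the search, so whether its promoter holds these motifs was not tested. The table lists 2 starts each for Lmna, Lmnb2 and Sun1 and 3 for Syne1, and the start with the most annotated coding transcripts beginning within 100 bases was used. This start lies inside the annotated 5′ end of the gene by 6604 bases for Lmna, 11132 for Syne3, 790 for Syne1 and 645 for Lbr. The sequence before those outer ends was not searched, and for Syne2 (184 bases inside) only in part. All 3 genes lie on the minus strand, and the windows are chr1:181842402-181842651 for Lbr, chr15:79742537-79742786 for Sun2 and chr3:88503353-88503602 for Lmna. Capitals mark the CCAAT box (CCAAT, or ATTGG on the other strand), which NF-Y binds, and the cell cycle homology region (TTTGAA, or TTCAAA on the other strand), known from genes of late cell cycle. These motifs do not overlap here.
Lbr: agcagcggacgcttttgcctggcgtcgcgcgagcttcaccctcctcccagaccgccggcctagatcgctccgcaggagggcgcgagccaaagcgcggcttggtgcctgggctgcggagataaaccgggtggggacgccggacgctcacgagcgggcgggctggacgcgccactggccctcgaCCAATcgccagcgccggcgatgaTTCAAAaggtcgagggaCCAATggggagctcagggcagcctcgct
Sun2: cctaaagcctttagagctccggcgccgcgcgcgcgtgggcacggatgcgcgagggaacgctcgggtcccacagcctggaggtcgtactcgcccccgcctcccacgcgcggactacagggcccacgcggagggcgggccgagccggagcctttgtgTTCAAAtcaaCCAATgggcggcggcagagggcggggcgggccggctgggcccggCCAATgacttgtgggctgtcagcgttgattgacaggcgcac
Lmna: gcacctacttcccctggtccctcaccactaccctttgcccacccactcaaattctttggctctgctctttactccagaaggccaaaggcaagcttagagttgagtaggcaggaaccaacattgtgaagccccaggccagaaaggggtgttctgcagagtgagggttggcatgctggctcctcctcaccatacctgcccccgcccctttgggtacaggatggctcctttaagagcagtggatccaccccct

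The windows of Lbr and Sun2 each held 2 CCAAT boxes and 1 TTTGAA, and the Lmna window shown held neither. The window of the other listed Lmna start (chr3:88493313-88493562) held 1 CCAAT box and no TTTGAA. Among the 9 members searched, 4 held a CCAAT box at the start used (Lbr, Emd, Sun1 and Sun2) and 5 at any listed start. Of the 32851 windows of this length at all listed starts of all genes, 33.8% held a CCAAT box. This share and those below are per window, so they are not comparable with the counts of members at any listed start. Both motifs were found together in 2 members (Lbr and Sun2) and in 5.55% of all windows. Sun1 and Syne2, which also fell at both stiffnesses, held no TTTGAA, and Syne2 held no CCAAT box either. GGGCGG, the GC box that SP1 binds, was in 8 of the 9 members, all but Syne3 (outer 5′ end not searched), and in 32.7% of all windows. CATTCC, a TEAD site, was found in 1 member (Emd) at the start used, in 2 (Emd and Syne1) at any listed start, and in 12.6% of all windows, and TGAGTCA, an AP-1 site, in 0 members and in 4.46% of all windows. The windows of all genes were not limited to expressed genes or to the start with the most coding transcripts. All members passed the expression filter, and the 9 members searched were searched at that start, so enrichment was not tested. Each letter string was searched on both strands, and a match is not evidence of binding.

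Per kb of exon, Lmna was the most abundant member in each group. On 2-kPa elastic gels its level was 93.4 ± 4.56 CPM per kb (SD, n = 3). Sun2 followed at 19.7 ± 0.704 CPM per kb. Emd (16.2 ± 0.879) and Lmnb1 (15.9 ± 0.209) did not differ beyond their spread. The next were Sun1 at 12.2 ± 0.238, Lbr at 10.9 ± 0.163, Syne3 at 9.64 ± 0.775 and Lmnb2 at 4.03 ± 0.129 CPM per kb. Syne1 at 2.85 ± 0.197 and Syne2 at 2.59 ± 0.395 CPM per kb were lowest and did not differ beyond their spread. The exons of these giant nesprin genes sum to 40.5 and 26.7 kb over all isoforms, and short isoforms would raise the true level per transcript.

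**Figure D1:**
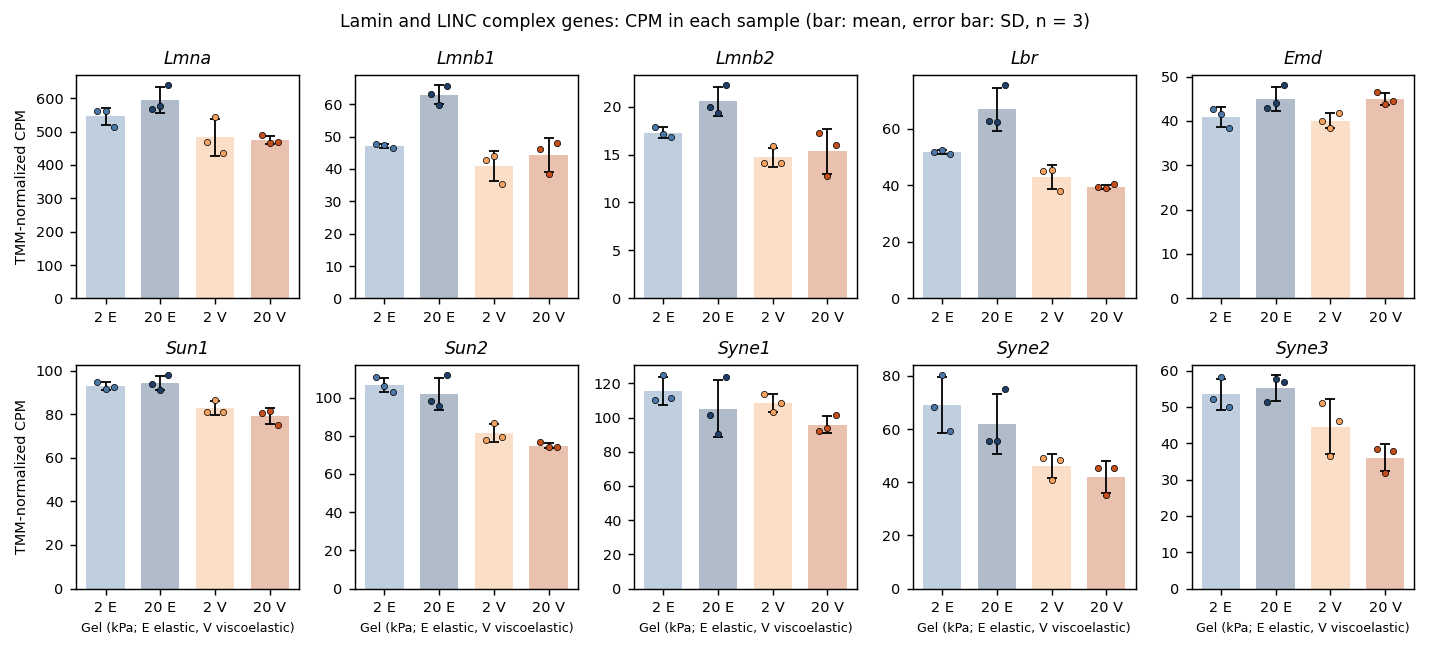
TMM-normalized CPM (y axis, from 0, a different scale in each panel) of the 10 genes in the 12 samples, by gel (x axis: stiffness in kPa, E for elastic, V for viscoelastic). Points are samples, bars are means and error bars are SD (n = 3); Lbr on 20-kPa elastic gels (62.4 to 75.4 CPM) stands above the other 3 groups, while Emd stays between 38.4 and 48.0 CPM in all samples.

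On viscoelastic gels of 20 kPa, most lamin and LINC complex genes were expressed at lower levels than on elastic gels of the same stiffness. Of the 10 genes, 8 fell, by 16.2% (Sun1) to 40.8% (Lbr), with Emd and Syne1 as the exceptions, at an adjusted p under 0.05 (edgeR quasi-likelihood test, Benjamini-Hochberg over all genes). Of all genes tested, 33.5% passed the test in this comparison and 16.1% passed it as lower. At 2 kPa, 4 of the 10 genes fell (Lbr, Sun1, Sun2 and Syne2), where 19.9% of all genes passed and 11.1% passed as lower. The log2 fold change was below 0 for all 10 members at both stiffnesses, as it was for 50.01% of all genes at 2 kPa and 47.8% at 20 kPa. The median over the members was -0.22 at 2 kPa and -0.43 at 20 kPa, against 0.00 and 0.02 over all genes. Scaling by total counts alone turned Emd to 0.009 at 2 kPa and 0.034 at 20 kPa, and it lowered the share of all genes called lower to 8.65% at 2 kPa and 13.1% at 20 kPa. In bulk RNA, fewer cells of a type and less RNA per cell cannot be told apart.

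**Figure D2:**
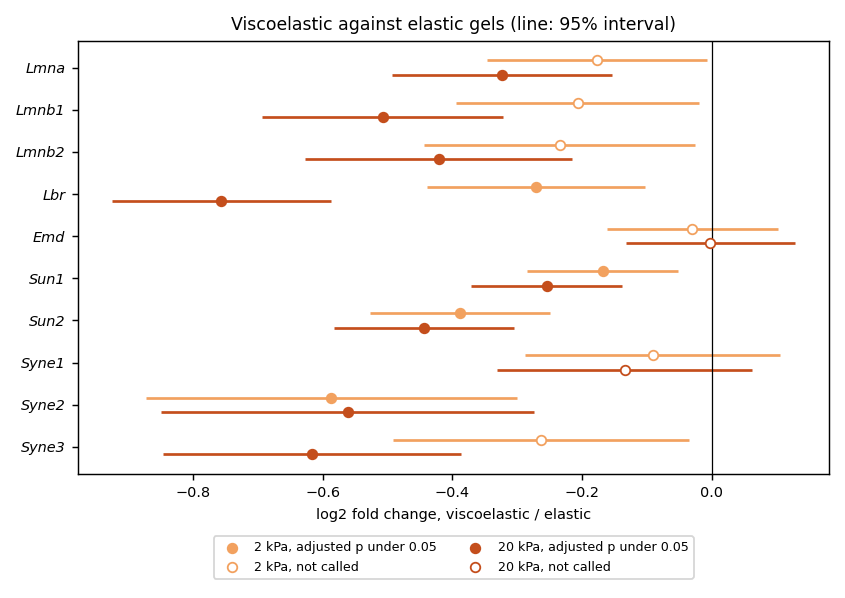
Log2 fold change of viscoelastic against elastic gels (x axis) for each gene (y axis) at 2 kPa (light) and 20 kPa (dark), with 95% intervals as lines. Filled points had an adjusted p under 0.05; all 20 points lie below 0, and only Lbr shows intervals at both stiffnesses that do not overlap.

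Lmna (chr3:88480147-88509956) measured 561, 561 and 515 CPM in the 3 samples on 2-kPa elastic gels and 469, 543 and 436 CPM on 2-kPa viscoelastic gels. At 20 kPa it measured 569, 578 and 639 CPM on elastic and 489, 467 and 470 CPM on viscoelastic gels. At 20 kPa each viscoelastic sample was below each elastic sample, whereas at 2 kPa replicate 2 on viscoelastic gels lay among the elastic samples. Expression differed by a log2 fold change of -0.32 ± 0.080 (SE; adjusted p = 0.00635, edgeR) at 20 kPa. At 2 kPa it was -0.18 ± 0.080 and did not pass (adjusted p = 0.131, edgeR). Without replicate 2 on 2-kPa viscoelastic gels it was -0.27 and passed (adjusted p = 0.0175, edgeR), the only 1 of 20 alternative fits in which it did. With length and GC offsets it was -0.105 (adjusted p = 0.376, edgeR). Counts per gene do not separate lamin A from lamin C.

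Lmnb1 (chr18:56707813-56753424) was at 63.2, 59.8 and 65.8 CPM on 20-kPa elastic gels and at 46.3, 38.4 and 48.1 CPM on 20-kPa viscoelastic gels. At 2 kPa the values were 47.6, 47.3 and 46.4 CPM on elastic and 42.9, 44.1 and 35.5 CPM on viscoelastic gels. The 20-kPa elastic samples were the highest of all 12, and the groups did not overlap at either stiffness. In log2 terms the fold change of Lmnb1 was -0.51 ± 0.087 at 20 kPa (adjusted p = 0.000651, edgeR) and -0.21 ± 0.088 at 2 kPa (adjusted p = 0.111, edgeR).

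Lmnb2 (chr10:80901203-80918245) showed a like order, with 20.0, 19.4 and 22.2 CPM on 20-kPa elastic gels and 17.3, 12.7 and 16.0 CPM on 20-kPa viscoelastic gels. On 2-kPa gels it measured 17.9, 17.1 and 16.8 CPM when elastic and 14.2, 15.8 and 14.1 CPM when viscoelastic. Neither pair of groups overlapped. Its log2 fold change was -0.42 ± 0.097 at 20 kPa (adjusted p = 0.00427, edgeR) and -0.23 ± 0.098 at 2 kPa (adjusted p = 0.106, edgeR). Leaving out replicate 2 on 20-kPa viscoelastic gels gave an adjusted p of 0.0392 for the 2-kPa comparison, the only 1 of 20 alternative fits that called it. With length and GC offsets the 2-kPa value was -0.153 (adjusted p = 0.3, edgeR).

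Lbr (chr1:181815335-181843046), the lamin B receptor, spans the inner nuclear membrane, tethers heterochromatin and has a sterol reductase domain. It had the largest fall among the members at 20 kPa. Its levels there were 62.5, 62.4 and 75.4 CPM on elastic and 39.2, 39.0 and 40.3 CPM on viscoelastic gels. At 2 kPa they were 51.6, 52.5 and 50.9 CPM on elastic and 45.0, 45.5 and 38.0 CPM on viscoelastic gels. All 6 viscoelastic samples were below all 6 elastic samples. Lbr had a log2 fold change of -0.76 ± 0.079 at 20 kPa (adjusted p = 7.5e-05, edgeR) and -0.27 ± 0.079 at 2 kPa (adjusted p = 0.0260, edgeR). The call at 2 kPa was lost without replicate 1 or 2 on 2-kPa elastic gels (adjusted p = 0.0742 and 0.0791) and without replicate 3 on 2-kPa viscoelastic gels (adjusted p = 0.115). Other genes overlap 1.45% of the Lbr exons on the same strand and 9.24% on the opposite strand, and the strand setting of the counting is not given in the sources used here.

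Emd (chrX:74254687-74261548) encodes emerin, a LEM domain protein that binds lamins and the chromatin protein BAF. It measured 42.7, 41.6 and 38.4 CPM on 2-kPa elastic gels and 40.0, 38.4 and 41.8 CPM on 2-kPa viscoelastic gels. At 20 kPa it measured 42.9, 44.02 and 48.0 CPM on elastic and 46.4, 43.9 and 44.5 CPM on viscoelastic gels. Elastic and viscoelastic samples overlapped at both stiffnesses. The 95% interval of the log2 fold change ran from -0.16 to 0.10 at 2 kPa and from -0.13 to 0.13 at 20 kPa, so a fall of the size seen for Lbr at 20 kPa lies outside it. Another gene shares 13.6% of the Emd exons on the same strand.

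Both SUN genes fell at both stiffnesses in the fit of all samples, with larger estimates for Sun2 than for Sun1. Other genes on the opposite strand overlap 2.71% of the Sun2 exons and 3.98% of the Sun1 exons. Sun2 (chr15:79724070-79742536) measured 111, 106 and 103 CPM on 2-kPa elastic gels and 77.9, 86.9 and 79.5 CPM on 2-kPa viscoelastic gels. At 20 kPa it measured 98.4, 95.9 and 112 CPM on elastic and 76.6, 74.2 and 73.9 CPM on viscoelastic gels. All 6 viscoelastic samples were below all 6 elastic samples. Sun2 had a log2 fold change of -0.39 ± 0.065 at 2 kPa (adjusted p = 0.00104, edgeR) and -0.44 ± 0.065 at 20 kPa (adjusted p = 0.000241, edgeR), and both calls were kept in all 20 alternative fits.

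Sun1 (chr5:139200637-139249840) measured 94.99, 91.4 and 92.7 CPM on elastic gels of 2 kPa, where the viscoelastic gels gave 81.0, 86.5 and 80.9 CPM. The values at 20 kPa were 93.7, 91.4 and 97.8 CPM on elastic and 80.5, 81.7 and 74.9 CPM on viscoelastic gels. Here too the 6 viscoelastic samples were below the 6 elastic samples. Its log2 fold change was -0.25 ± 0.055 at 20 kPa (adjusted p = 0.00276, edgeR) and -0.17 ± 0.055 at 2 kPa (adjusted p = 0.0421, edgeR). The call at 2 kPa was kept in 6 of 20 alternative fits. With offsets for gene length and GC content the log2 fold change was -0.083 (adjusted p = 0.315), and without replicate 1 on 2-kPa elastic gels the adjusted p was 0.140, the highest with 1 sample left out.

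Of the nesprin genes, Syne2 was called at both stiffnesses, Syne3 at 20 kPa and Syne1 at neither. Syne2 (chr12:75818134-76110926), whose giant isoform nesprin-2 binds actin, had the largest fall of the members at 2 kPa. At that stiffness it measured 68.3, 80.2 and 59.2 CPM on elastic and 49.0, 40.8 and 48.5 CPM on viscoelastic gels. At 20 kPa the levels were 55.6, 55.3 and 75.1 CPM on elastic and 45.5, 35.2 and 45.3 CPM on viscoelastic gels. Every viscoelastic sample was below every elastic sample, although the elastic samples spread widely. For Syne2 the log2 fold change was -0.59 ± 0.13 at 2 kPa (adjusted p = 0.00724, edgeR) and -0.56 ± 0.13 at 20 kPa (adjusted p = 0.00549, edgeR).

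Syne3 (chr12:104929933-105009809) encodes nesprin-3, which binds plectin and through it intermediate filaments. At 20 kPa it measured 51.2, 57.7 and 56.7 CPM on elastic and 38.5, 31.7 and 37.8 CPM on viscoelastic gels, with no overlap. At 2 kPa it measured 52.3, 58.2 and 49.9 CPM on elastic and 51.1, 36.4 and 46.1 CPM on viscoelastic gels, and replicate 1 on viscoelastic gels lay among the elastic samples. The log2 fold change was -0.62 ± 0.11 at 20 kPa (adjusted p = 0.000738, edgeR) and -0.26 ± 0.11 at 2 kPa (adjusted p = 0.0958, edgeR). Without that replicate 1 the 2-kPa value was -0.38 (adjusted p = 0.0244, edgeR). The 2-kPa fall was called in 2 of 20 alternative fits, this one and that without the expression filter (adjusted p = 0.0359). With length and GC offsets it was -0.17 (adjusted p = 0.331, edgeR).

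Syne1 (chr10:5020917-5551482), which encodes nesprin-1, was not called in either comparison. It measured 111, 125 and 111 CPM on elastic and 114, 103 and 108 CPM on viscoelastic gels of 2 kPa. At 20 kPa the levels were 101, 90.7 and 124 CPM on elastic and 92.1, 94.1 and 101 CPM on viscoelastic gels. The groups overlapped at both stiffnesses. The log2 fold change was -0.091 ± 0.092 at 2 kPa and -0.13 ± 0.092 at 20 kPa, and the 2-kPa value became 0.093 with length and GC offsets. Averaged over both stiffnesses, the viscoelastic effect was called lower for the same 8 members as at 20 kPa, with 40.0% of all genes called and 20.4% as lower. This average shares its samples with both comparisons above and adds no independent evidence. Leaving out replicate 2 on 20-kPa elastic gels made Syne1 a ninth (averaged log2 fold change -0.16, adjusted p = 0.0490), the only 1 of 19 alternative fits to do so.

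The groups did not overlap, viscoelastic below elastic, for 6 of the 10 members at 2 kPa, where this held for 19.7% of all genes (36.3% in either direction). At 20 kPa they did not overlap for 8 of the 10 members, against 23.7% of all genes (49.9% in either direction).

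Lmnb1 and Lbr rose with stiffness on elastic gels. From 2 to 20 kPa on elastic gels, Lmnb1 rose by 33.5% and Lbr by 29.2%, and these were the 2 members of 10 called, where 14.0% of all genes were called and 6.81% were called higher. The log2 fold change was 0.42 ± 0.087 for Lmnb1 (adjusted p = 0.00576, edgeR) and 0.37 ± 0.078 for Lbr (adjusted p = 0.00623, edgeR). For both genes the 3 samples on 20-kPa elastic gels were above the 3 on 2-kPa elastic gels. Lmnb2 had 0.25 ± 0.096 and did not pass (adjusted p = 0.103, edgeR), but passed with length and GC offsets (adjusted p = 0.0236), in a fit of only these groups (adjusted p = 0.0338) and without replicate 2 on 20-kPa viscoelastic gels (adjusted p = 0.0358). Lmna had 0.13 ± 0.080 (adjusted p = 0.322, edgeR) with groups that did not overlap. The groups did not overlap, with 20 kPa higher, for 5 of 10 members (Lmna, Lmnb1, Lmnb2, Lbr and Emd), as for 17.8% of all genes (35.6% in either direction).

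No SUN or nesprin gene was called between stiffnesses. On elastic gels the log2 fold change was 0.020 ± 0.055 for Sun1, -0.064 ± 0.065 for Sun2, -0.13 ± 0.092 for Syne1, -0.16 ± 0.13 for Syne2 and 0.046 ± 0.11 for Syne3. These comparisons share the 20-kPa elastic samples with the viscoelastic comparison at 20 kPa, so the high Lmnb1 and Lbr levels of those 3 samples enter both.

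On viscoelastic gels, 0 of the 10 members passed between 20 and 2 kPa in edgeR and 0 in DESeq2, where 2.28% of all genes were called by edgeR. At an unadjusted p under 0.05, 2768 genes passed, Emd and Syne3 among them. Emd had a log2 fold change of 0.17 ± 0.062 (adjusted p = 0.158, edgeR), and its 20-kPa samples were all above its 2-kPa samples. Syne3 had -0.31 ± 0.11 (adjusted p = 0.140, edgeR), with groups that overlapped. Without the expression filter Syne3 passed (adjusted p = 0.0298), as it did without replicate 2 on 2-kPa viscoelastic gels, the lowest Syne3 sample of its group (adjusted p = 0.0380). Lmnb1 and Lbr had 0.12 ± 0.088 and -0.12 ± 0.080, with 95% intervals of -0.07 to 0.30 and -0.29 to 0.05. For 3 of the 10 members the groups did not overlap, as for 22.3% of all genes. Emd was higher at 20 kPa, as 13.6% of all genes were by this count, and Sun2 and Syne1 were lower, as 8.73% were.

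**Figure D3:**
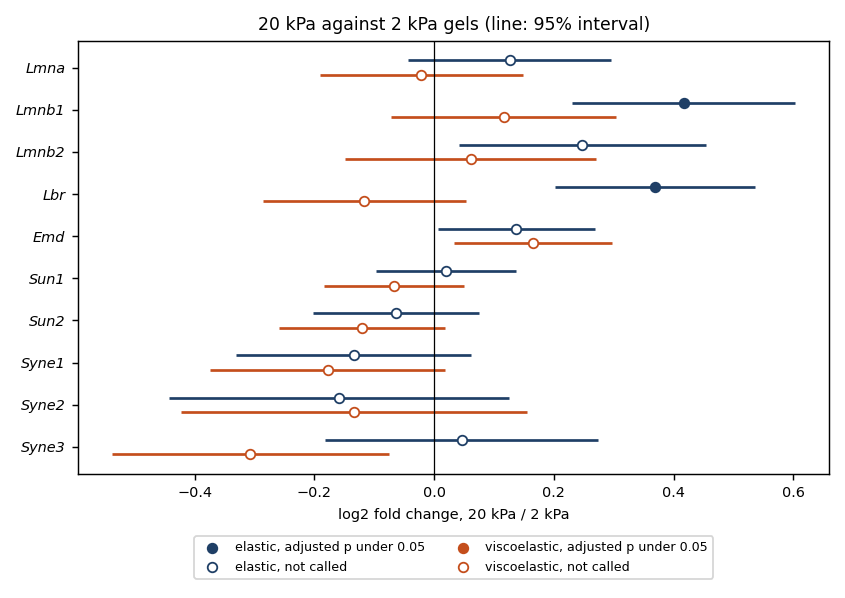
Log2 fold change of 20-kPa against 2-kPa gels (x axis) for each gene (y axis), on elastic gels (blue) and viscoelastic gels (orange), with 95% intervals as lines. Filled points had an adjusted p under 0.05; these are Lmnb1 (0.42) and Lbr (0.37) on elastic gels.

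The effect of viscoelasticity depended on stiffness for 1 member. For Lbr the log2 fold change was lower by 0.49 at 20 kPa than at 2 kPa (interaction -0.49 ± 0.11, adjusted p = 0.0157, edgeR), where 7.56% of all genes had a called interaction and 3.12% a negative one. The call was kept in all 19 alternative fits, with values from -0.56 to -0.39. The interaction was -0.30 ± 0.12 for Lmnb1 (adjusted p = 0.161, edgeR) and -0.35 ± 0.15 for Syne3 (adjusted p = 0.181, edgeR). Lmnb1 passed without replicate 3 on 2-kPa viscoelastic gels (adjusted p = 0.0478), and Syne3 without replicate 2 of the same group (adjusted p = 0.0264). For each gene this was the only 1 of 19 alternative fits in which it passed. For Sun2 and Syne2 the interaction was -0.057 ± 0.092 and 0.025 ± 0.19, with 95% intervals of -0.25 to 0.14 and -0.38 to 0.43.

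Ratios within a sample do not depend on the library's scaling. The ratio of Lmna to the sum of Lmnb1 and Lmnb2, in counts per kb of exon, was 4.74, 4.81 and 4.50 on 2-kPa elastic gels and 3.75, 4.01 and 3.998 on 20-kPa elastic gels. The stiffer elastic gels were lower in each sample. On viscoelastic gels it was 4.51, 5.002 and 4.89 at 2 kPa and 4.26, 5.03 and 4.03 at 20 kPa, with overlapping groups. The ratio of Sun2 to Sun1 per kb was 1.63, 1.63 and 1.56 on 2-kPa elastic and 1.47, 1.47 and 1.60 on 20-kPa elastic gels. It was 1.35, 1.41 and 1.38 on 2-kPa viscoelastic and 1.33, 1.27 and 1.38 on 20-kPa viscoelastic gels. Each of the 6 viscoelastic samples had a lower Sun2 to Sun1 ratio than each of the 6 elastic samples. No test was run on these ratios.

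**Figure D4:**
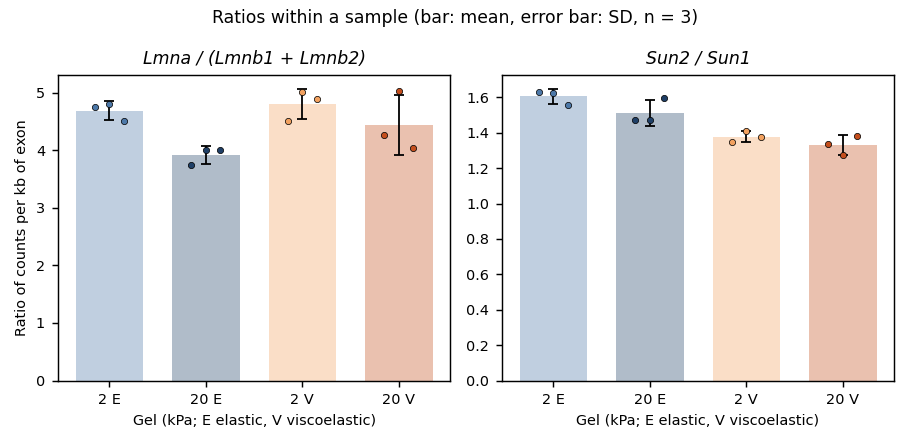
Ratio of Lmna to Lmnb1 plus Lmnb2 (left) and of Sun2 to Sun1 (right) in counts per kb of exon (y axes, from 0), by gel (x axis: kPa, E elastic, V viscoelastic). Points are samples, bars are means and error bars are SD (n = 3); the left ratio is lowest on 20-kPa elastic gels (3.92 ± 0.148) and the right ratio is lower on both viscoelastic gels (1.38 ± 0.030 and 1.33 ± 0.0552).

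Other genes of the nuclear envelope gave mixed counts. Of 13 nuclear membrane partners, 2 fell on viscoelastic gels at 2 kPa and 7 at 20 kPa, while none rose. Of all genes tested, 11.1% were called lower and 8.77% higher at 2 kPa, and 16.1% lower and 17.4% higher at 20 kPa, so the 2-kPa count was near the share of all genes. Tmpo, which encodes the lamina-associated LAP2 proteins, measured 210 ± 8.61 CPM (SD, n = 3) on elastic gels of 20 kPa and 153 ± 7.80 CPM on viscoelastic gels of that stiffness (log2 fold change -0.45, adjusted p = 0.000252, edgeR). Nemp1, a nuclear envelope protein gene, had a log2 fold change of -0.61 at 20 kPa (adjusted p = 0.000202, edgeR). Both rose with stiffness on elastic gels, by 0.43 for Tmpo (adjusted p = 0.000863) and 0.28 for Nemp1 (adjusted p = 0.0366) on the log2 scale, the Nemp1 call being lost in 6 of 12 fits with 1 sample left out (adjusted p up to 0.188). The 2 partners called at 2 kPa were Tmem201 (-0.27, adjusted p = 0.00799), which was lost with length and GC offsets (adjusted p = 0.386), and Lemd3 (-0.25, adjusted p = 0.0280), which was lost in 4 of 12 fits with 1 sample left out (adjusted p up to 0.121). The median over the 13 genes was -0.083 at 2 kPa and -0.24 at 20 kPa.

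Of the 6 genes of lamin processing, which farnesylate, cleave and methylate prelamin A or bind it, 2 rose and 3 fell on viscoelastic gels at 20 kPa, where 17.4% of all genes rose and 16.1% fell. Zmpste24, the protease that matures prelamin A, fell by 0.39 on the log2 scale (adjusted p = 0.000728, edgeR) and Icmt, the methyltransferase of the processed end, by 0.27 (adjusted p = 0.00229, edgeR). Fnta, the shared alpha subunit of farnesyltransferase, rose by 0.31 (adjusted p = 0.000992, edgeR) and Narf by 0.30 (adjusted p = 0.00218, edgeR). At 2 kPa 1 of the 6 was called in each direction. These were Narf (0.19, adjusted p = 0.0483), lost in 9 of 12 fits with 1 sample left out (adjusted p up to 0.159) and in 4 of 8 other settings, and Icmt (-0.20, adjusted p = 0.0181), lost in 3 of 12 (adjusted p up to 0.105) and in 3 of 8 other settings, length and GC offsets among them (adjusted p = 0.101).

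Of 8 genes that tether chromatin to the lamina, 1 fell at 2 kPa and 1 fell and 2 rose at 20 kPa on viscoelastic gels, which is near the shares of all genes (11.1% lower at 2 kPa, and 16.1% lower and 17.4% higher at 20 kPa). The gene that fell was Cbx5 at both stiffnesses, which encodes the heterochromatin protein HP1 alpha (-0.36, adjusted p = 0.00730, and -0.40, adjusted p = 0.00237, edgeR). Prr14 (0.22, adjusted p = 0.0146) and Cbx1 (0.19, adjusted p = 0.0191) rose at 20 kPa, and both calls were lost in some of the 12 fits with 1 sample left out (2 and 3, adjusted p up to 0.0785 and 0.0839). Of 9 cytoplasmic partners of nesprins, 1 fell at 2 kPa, near the 11.1% of all genes, and 4 at 20 kPa, against 16.1%. Plec, which encodes the plectin that nesprin-3 binds, fell by 0.65 on the log2 scale at 20 kPa (adjusted p = 0.000417, edgeR). Dync1h1, the dynein heavy chain, fell at both stiffnesses (-0.33, adjusted p = 0.0486, and -0.41, adjusted p = 0.0112, edgeR), but its 2-kPa call was lost in 8 of 12 fits with 1 sample left out (adjusted p up to 0.188), its 20-kPa call in 1 of 12 (adjusted p = 0.0686), and both calls with length and GC offsets (adjusted p = 0.302 and 0.0543). On elastic gels Bicd2, a dynein adaptor, was the 1 partner that rose with stiffness (0.19, adjusted p = 0.0443), a call lost in 7 of 12 fits with 1 sample left out (adjusted p up to 0.207). Of 6 other SUN and KASH genes, 2 passed the expression filter and none was called in the comparisons of 2 groups; their summed level was at most 3.41 CPM.

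Proliferation genes fell on viscoelastic gels and rose with stiffness on elastic gels. Of 10 proliferation genes, 6 fell on viscoelastic gels at 2 kPa and 9 at 20 kPa, against 11.1% and 16.1% of all genes. Mki67 fell by 0.49 on the log2 scale at 2 kPa (adjusted p = 0.00709, edgeR) and by 0.78 at 20 kPa (adjusted p = 0.000213, edgeR). Mcm5 fell by 0.48 at 2 kPa (adjusted p = 0.00147) and Top2a by 0.71 at 20 kPa (adjusted p = 0.000172). From 2 to 20 kPa, 7 of the 10 rose on elastic gels, against 6.81% of all genes, such as Birc5 (0.39, adjusted p = 0.00457) and Ccnb1 (0.37, adjusted p = 0.0210, lost in 4 of 12 fits with 1 sample left out, adjusted p up to 0.101), and none was called on viscoelastic gels. The rise was called for 2 of the 10 when replicate 2 or 3 on 2-kPa elastic gels or replicate 3 on 20-kPa elastic gels was left out.

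Their summed level was 1262 to 1345 CPM on 2-kPa elastic, 1544 to 1778 CPM on 20-kPa elastic, 960.7 to 1061 CPM on 2-kPa viscoelastic and 869.4 to 1134 CPM on 20-kPa viscoelastic gels. The part of these genes in the lamin and Lbr results was not tested. The summed level of the 4 chondrocyte markers was 4320 to 4365 CPM on 20-kPa elastic gels and 4595 to 5893 CPM in the other 3 groups. Within this sum, Acan fell on viscoelastic gels at 2 kPa (-0.47 on the log2 scale, adjusted p = 0.00847, edgeR) and with stiffness on elastic gels (-0.50, adjusted p = 0.00768, edgeR), whereas Comp rose on viscoelastic gels at 20 kPa (0.64, adjusted p = 0.00175, edgeR). Of the 8 fibroblast markers, 3 rose and 1 fell on viscoelastic gels at 20 kPa, where 17.4% of all genes rose and 16.1% fell. None of the 8 was called at 2 kPa. Dcn rose by 0.75 (adjusted p = 0.00175, edgeR) and Lum by 0.70 (adjusted p = 0.00140, edgeR), and Thy1 fell by 0.53 (adjusted p = 0.000837, edgeR). Of the 3 mural cell markers, Cspg4 measured 461 to 540 CPM on 2-kPa elastic, 363 to 498 CPM on 20-kPa elastic, 312 to 325 CPM on 2-kPa viscoelastic and 272 to 328 CPM on 20-kPa viscoelastic gels, while Notch3 stayed at or under 10.7 CPM and Rgs5 at or under 1.00 CPM. Their part in the results was not tested either.

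**Figure D5:**
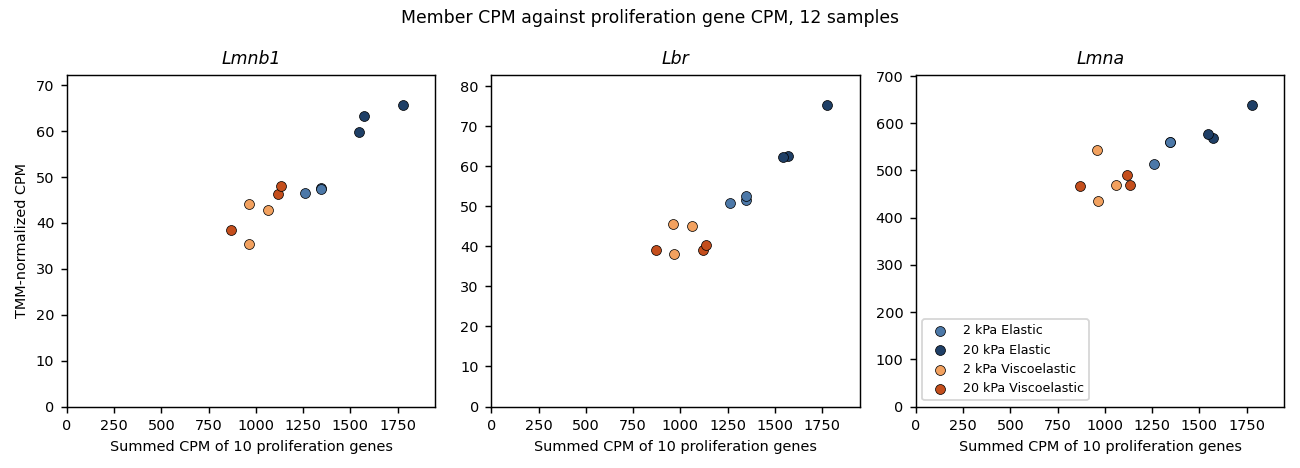
TMM-normalized CPM of Lmnb1, Lbr and Lmna (y axes, from 0) against the summed CPM of 10 proliferation genes (x axis) in the 12 samples, coloured by gel. The 3 samples on 20-kPa elastic gels lie at the upper right in each panel (1544 to 1778 CPM on the x axis), and the viscoelastic samples lie between 869.4 and 1134 CPM.

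The genes most like a member over the 12 samples were found for the 3 members with the widest range of group means (Lbr, Syne2 and Lmnb1), as the lowest root mean square difference of log2 CPM after each gene was centred on its own mean. For Lmnb1 these were Shcbp1 (0.0389), Cdc20 (0.0399), an activator of the anaphase-promoting complex, and Fignl1 (0.0523), against a median of 0.312 over all genes. For Lbr they were Nemp1 (0.0697), with a second entry of identical counts in all 12 samples (X1700012D01Rik), and Pcdh19 (0.0789), a protocadherin gene, against 0.352. For Syne2 they were Hspg2 (0.105), which encodes the basement membrane proteoglycan perlecan, Itpr3 (0.109), a calcium channel gene of the endoplasmic reticulum, and Cspg4 (0.109), the NG2 proteoglycan gene, against 0.385. The samples share their groups, so likeness includes the differences between gels.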

How the data were processed

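RNA of 12 samples was sequenced. The authors trimmed the reads (Trimmomatic), aligned them to mm10 (STAR) and deposited raw counts per gene from featureCounts, not normalized. The annotation release and the strand setting are not given in the sources used here. The test was edgeR's quasi-likelihood test (edgeR 4.0.16, R 4.3.3), run on genes that passed filterByExpr (minimum count 10, minimum total 15) after TMM scaling (factors 0.968 to 1.03). All 12 samples and 14542 genes entered 1 fit, in which each group had its own coefficient, with Benjamini-Hochberg adjustment and a threshold of 0.05. Totals of 36626221 to 43612804 counts make counting error small for the members, and the biological coefficient of variation was 7.50%. Positions and exon lengths came from GENCODE vM21 (mm10), and levels per kb divide by all exons of a gene. The script was tested on simulated data.

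The members and gene lists were chosen with earlier results of these data known. Named genes are the members and, of each list, at most 2 genes called per direction and comparison with the largest log2 fold change, as well as the 3 genes most like each of 3 members. Alternatives were DESeq2 1.42.0, RLE factors, total counts alone, no expression filter, fits of only the groups compared, a replicate block, length and GC offsets, a threshold of 0.01 and leaving out each sample. For the lists they were added after seeing the data. The labels do not say whether equal replicate numbers share a batch, and the main fit did not pair them. The other assays of the study were not analysed here.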

Additional observations from a re-analysis of the deposited data

Results flagged for a closer look

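Lbr had a viscoelastic effect that differed between the stiffnesses by a test of the difference itself: the interaction was -0.49 on the log2 scale (adjusted p = 0.0157, edgeR), from -0.27 at 2 kPa and -0.76 at 20 kPa. Tmpo, of the nuclear membrane partners, had an interaction of -0.43 (adjusted p = 0.0121, edgeR), from -0.023 at 2 kPa and -0.45 at 20 kPa. For Lbr and Tmpo the 3 samples on 20-kPa elastic gels were the highest, at 62.4 to 75.4 CPM for Lbr and 203 to 219 CPM for Tmpo. Among the fibroblast markers, Lum had an interaction of 1.085 (adjusted p = 0.00297, edgeR), from -0.38 at 2 kPa and 0.70 at 20 kPa, and Thy1 of -0.62 (adjusted p = 0.0109, edgeR), from 0.090 at 2 kPa and -0.53 at 20 kPa. Groups of 3 samples are too small for the search for single outlying samples, which was not run.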

How the results depend on the processing

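Of the 1180 alternative values of the 60 member fold changes, 1114 kept both their direction and their side of the threshold, 17 lost a call, 13 gained one and 36 changed sign, none of them called. The 8 falls at 20 kPa and both rises on elastic gels were called in all 20 alternatives. At an adjusted p under 0.01, 2 members were called at 2 kPa and 0 for the interaction, where 1352 and 400 of all 14542 genes were called. Without the expression filter 1 member was called between stiffnesses on viscoelastic gels, as were 653 of all 23149 genes. With 1 sample left out, 2 to 5 members were called at 2 kPa, 0 to 1 between stiffnesses on viscoelastic gels and 1 to 2 for the interaction. Of all genes, these fits called 1545 to 3085, 9 to 351 and 670 to 1182. The count at 2 kPa was 2 without replicate 1 or 2 on 2-kPa elastic gels or replicate 3 on 2-kPa viscoelastic gels.

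Small values changed sign. Total counts alone gave Emd 0.0090 at 2 kPa, 0.034 at 20 kPa and 0.022 on average over both. Length and GC offsets gave Syne1 0.093 at 2 kPa and 0.046 on average, Sun2 0.035 between stiffnesses on elastic gels, Lmna 0.0050 on viscoelastic gels, and interactions of -0.026 for Emd and -0.0073 for Syne2. The same offsets with the replicate block gave Syne1 0.091 at 2 kPa, 0.00054 at 20 kPa and 0.046 on average, Sun2 0.034, Lmna 0.0078 and the Emd interaction -0.025. With 1 sample left out, Emd ran from -0.073 to 0.0015 at 2 kPa, from -0.052 to 0.048 at 20 kPa and from -0.037 to 0.0087 on average. Between stiffnesses, Sun1 ran from -0.0075 to 0.042 and Syne3 from -0.0015 to 0.11 on elastic gels, and Lmna from -0.089 to 0.072 and Lmnb2 from -0.034 to 0.18 on viscoelastic gels. Interactions ran from -0.031 to 0.078 for Emd, -0.11 to 0.013 for Sun2, -0.14 to 0.089 for Syne1 and -0.094 to 0.19 for Syne2. The cause was not tested.

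In raw counts, not per kb, the ratio of Lmna to Lmnb1 plus Lmnb2 was 8.47 on 2-kPa elastic, 7.13 on 20-kPa elastic, 8.69 on 2-kPa viscoelastic and 8.06 on 20-kPa viscoelastic gels, and that of Sun2 to Sun1 was 1.15, 1.08, 0.983 and 0.949. The last is the ratio per kb times a constant, so it cannot change the order of the groups.

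Deviations of samples with equal replicate numbers had correlations of -0.16 to -0.018 between stiffnesses on elastic gels. Between gel types they were -0.12 to 0.041 at 2 kPa and -0.16 to 0.051 at 20 kPa. Between stiffnesses on viscoelastic gels they were 0.048 to 0.308, and 4 of 6 samples correlated best with the one of their own number. What equal numbers share is not given by the labels. With the replicate block 3 members were called at 2 kPa (Sun1 lost its call, adjusted p = 0.0692) and 8, 2, 0, 8 and 1 in the other comparisons. Of all 14542 genes, it called 2569 at 2 kPa and 4485, 1731, 154, 5475 and 845 in the others. Between stiffnesses on viscoelastic gels 331 of all genes were called, 757 by DESeq2, 653 without the filter, 164 with length and GC offsets, 154 with the block, 77 with both, 38 with only these groups and as few as 9 with 1 sample left out (20-kPa viscoelastic replicate 3). On elastic gels 2029 became 1063 without 20-kPa elastic replicate 3, at 2 kPa 2892 became 1545 without 2-kPa elastic replicate 1, at 20 kPa 4866 became 3177 without 20-kPa elastic replicate 3, and the interaction's 1100 became 670 without 2-kPa elastic replicate 1. Counting error is widest for Lmnb2, the member with the fewest counts (540 to 902 in a sample).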
